A study of Sus scrofa with 20 samples.

Results

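Ion channels, ion pumps, aquaporins and claudins were examined in kidney RNA of 20 pigs, by their level on arrays after neurologic death (ND) and in controls. The genes were taken by symbol: those starting with KCN, SCN, CLCN, CLIC, CACN, TRPC, TRPM, TRPV, AQP, ATP1, ATP2 or CLDN, without KCNJ1, SCNN1B, AQP3 and CLDN5, which gave 62 of the 6765 genes with a single symbol on the platform. Where a gene had several probe sets, the one with the highest mean level over the 20 arrays stood for it. In 10 ND pigs a subdural balloon catheter was inflated until ND could be declared, on top of a burr hole, catheters and anaesthesia, which the 10 control pigs had alone. Pigs of both groups were ventilated for 6 h and given 0.9% saline in boluses of 2 cc/kg to hold blood pressure. The floor for mean arterial pressure was 35 mmHg. Kidney tissue was then frozen, with 2 specimens per pig in the labels and 1 array per animal number. The labels used here give no breed, age or sex. Each pig is called by its group and its number in the labels, as in ND_47.

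The tubule of the kidney reabsorbs salt and water across its cells through channels, carriers and aquaporins, driven by the sodium pump, and between its cells through pores that claudins form in the tight junction. Calcium pumps of the endoplasmic reticulum and the Golgi apparatus fill these stores and others export calcium from the cell, while some chloride transporters serve endosomes. Potassium channels set the membrane potential that transport depends on, and each tubule segment carries its own set of these proteins. In whole tissue, fewer cells of a type and less RNA per cell cannot be told apart.

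Of the 62 genes 7 changed: CLIC2, CLIC1, ATP23 and SCNM1 rose in ND, and AQP11, CLCN3 and ATP10A fell. Differences are ND minus control in log2 signal, 10 animals each, tested in limma across 23999 probe sets, and a gene passed at a Benjamini-Hochberg adjusted p under 0.05. The 7 genes are 11.3% of the set, beside 9.99% called over all 6765 genes (5.44% higher and 4.55% lower), so the share lies near that of the array as a whole. At an unadjusted p under 0.05 the shares were 29.0% of the set and 30.1% of all genes. The median difference was -0.03 in the set and -0.02 over all genes. The symbol rule also took 4 genes that are no channel, pump or claudin (SCNM1, ATP23, TRPC4AP and CLDND1), and 5 of the other 58 genes changed (8.62%). For none of the 62 genes did the 10 ND values lie wholly apart from the 10 control values, as they did for 0.591% of all genes.

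**Figure D1:**
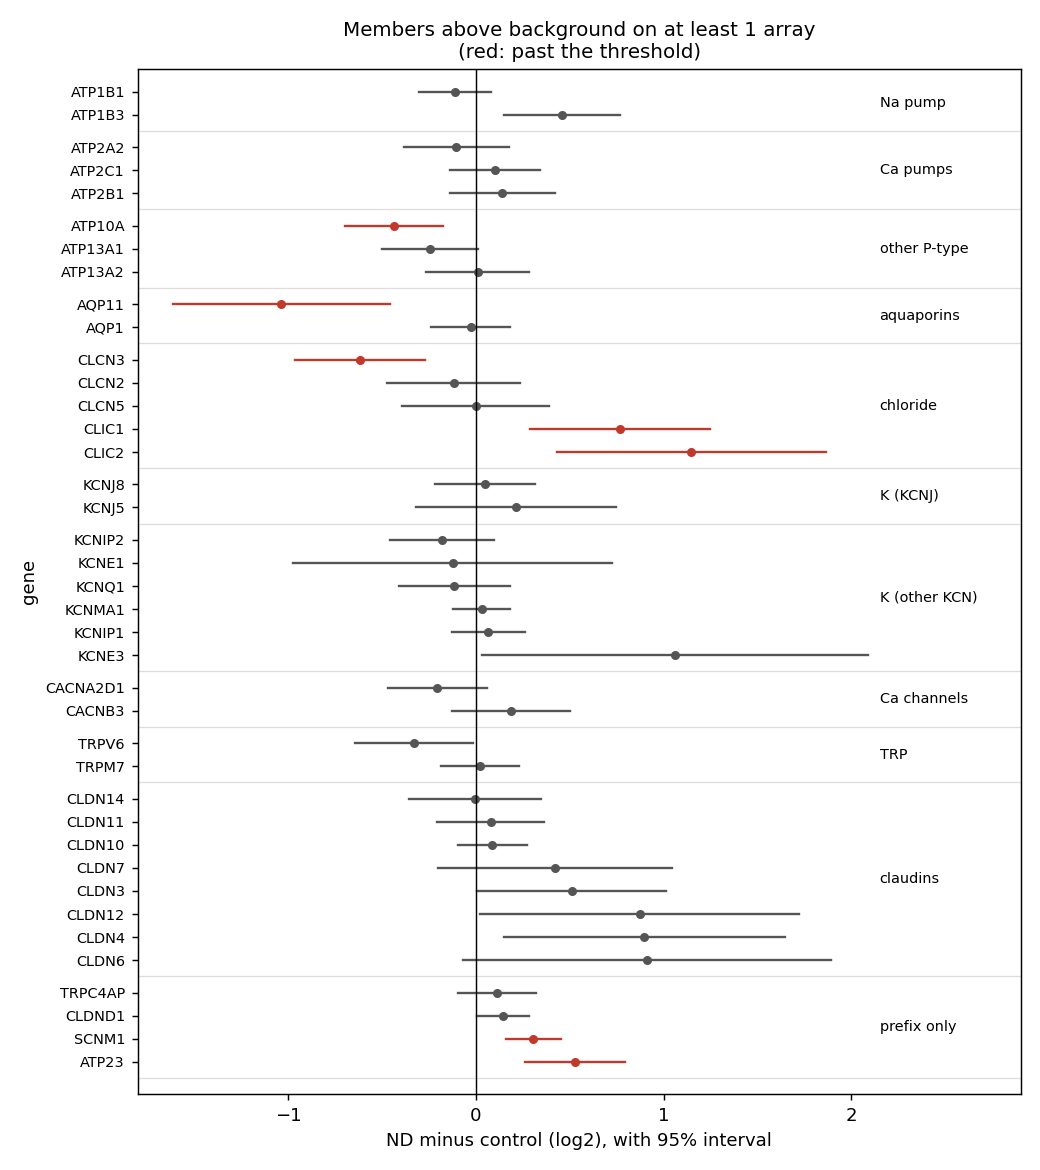
Difference between ND and control animals in log2 signal (x axis) with its 95% interval for the 39 genes above background on at least 1 array (y axis), grouped by role, with red for the 7 genes past the threshold. AQP11 lies farthest to the left at -1.03 and CLIC2 farthest to the right at 1.15, while the 8 claudins lie between -0.003 and 0.91 without passing.

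Many of these genes could not be measured in kidney tissue on this array. Background was read from 23 control probe sets without a target in kidney, whose upper end was 2.79. Of the 62 genes 23 read at or below that level on all 20 arrays, and 27 read above it on every array. Among all genes 12.4% read at background throughout. The 23 were 13 potassium channel genes (KCNA2, KCNA6, KCNB2, KCNE2, KCNE4, KCNF1, KCNH2, KCNIP4, KCNJ2, KCNJ3, KCNMB1, KCNN3 and KCNN4), the calcium channel subunits CACNB2, CACNB4 and CACNG3, the calcium pumps ATP2A1, ATP2A3 and ATP2C2, AQP5, AQP8, ATP1B4 and SCNN1A, the alpha subunit of the epithelial sodium channel. Each of the 23 read slightly lower in ND, by -0.02 to -0.09, and so did each of the 23 background control probe sets, by -0.02 to -0.08. These 23 genes were not well above background in either group, so their small differences are not counted as changes.

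After median scaling, in which every array is shifted to 1 common median, 28 of the 62 genes were called, 5 higher and 23 lower, in place of 4 higher and 3 lower. Of these 28, 19 were genes at background on all arrays. That shift moved the median difference of all genes from -0.02 to -0.11. With quantile normalization 6 were called, 4 higher and 2 lower. The share called over all genes was not taken under either scaling, so these counts cannot be set beside the array as a whole.

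One ND animal stood apart. ND_47 was the highest or the lowest of all 20 animals for 21 of the 39 genes above background on at least 1 array (53.8%), and for 41.1% of 5923 such genes over the array. For CLDN11, KCNIP1 and CACNB3 this was fixed by the filter, since ND_47 was the one array on which they read above background. Its median correlation with the other ND arrays was 0.970, where the other 19 arrays had 0.985 to 0.992 with their own groups. HSD11B2, an enzyme of the distal tubule and collecting duct that inactivates cortisol, read 5.38 in ND_47 and 9.70 to 10.86 in the other 19 animals. The animals' numbers also differed between groups, with 7 of 10 ND animals and 1 of 10 controls numbered up to 100. With a term for that split, limma called 0 of the 62 genes (7 at an unadjusted p under 0.05), and it called 0 (3 at an unadjusted p under 0.05) among the 8 high-numbered pigs, 3 ND (ND_193, ND_194 and ND_198) and 5 control (Control_184, Control_187, Control_190, Control_197 and Control_199). The share of all genes called was not taken for either fit, so these counts cannot be read as particular to the set. Number and group overlap, so a part of the differences cannot be told apart from what the numbers stand for.

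**Figure D2:**
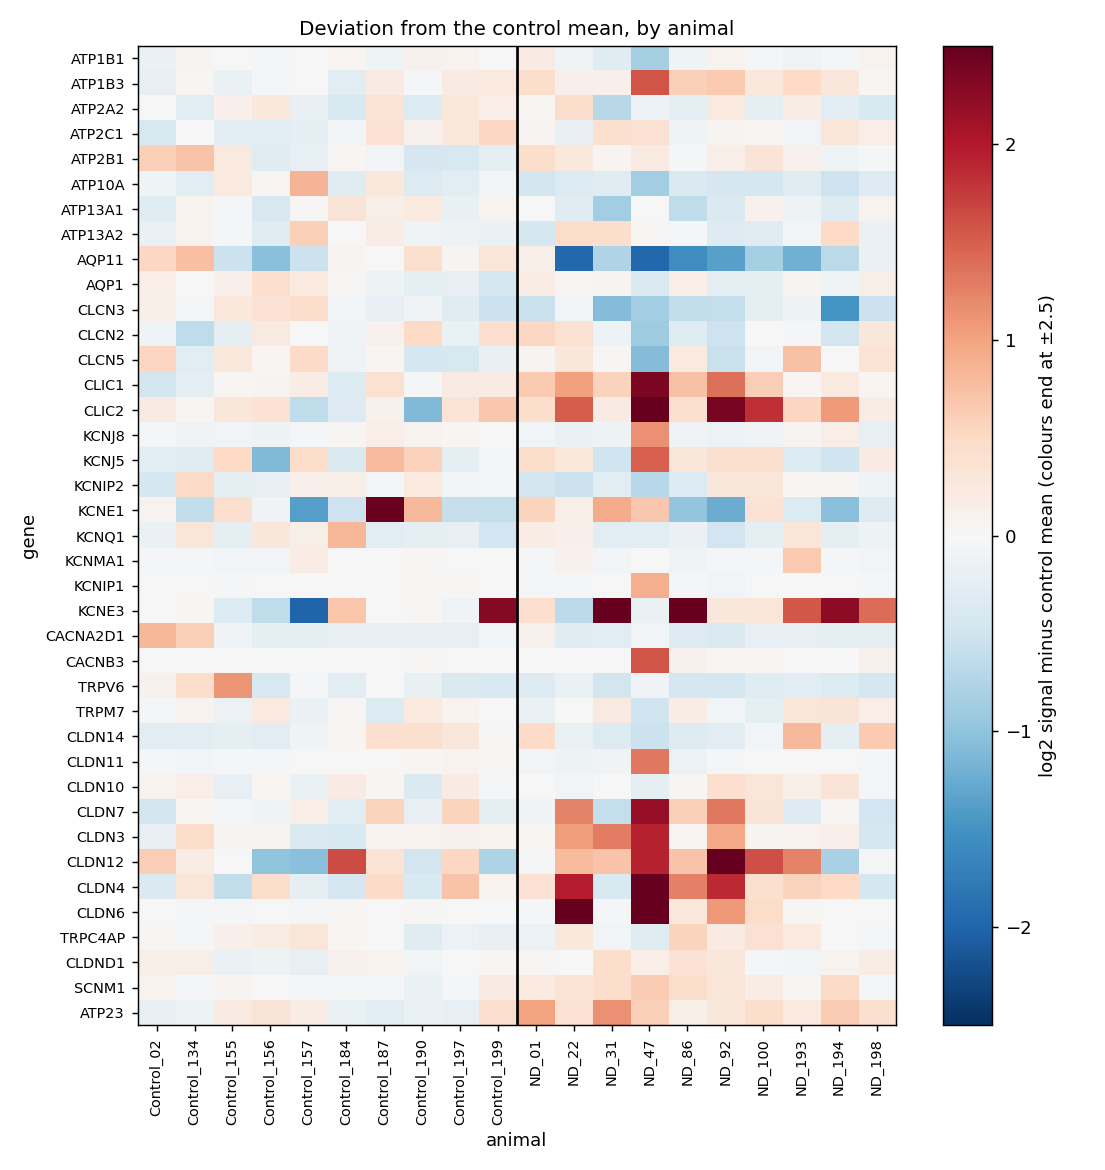
Log2 signal of each animal (x axis, controls left of the line) minus the control mean, as colour, for the 39 genes above background on at least 1 array (y axis, grouped by role). Red marks values above the control mean and blue values below it: the column of ND_47 is red for CLIC1, CLIC2, CLDN4, CLDN6 and CLDN7, and AQP11 is blue in 9 of 10 ND animals.

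Among the water channels AQP11 fell and AQP1 did not pass. AQP11 is an aquaporin of intracellular membranes in the proximal tubule, and mice without it develop polycystic kidneys. Its log2 signal ran from 8.35 over a median of 9.30 to 10.46 in ND animals, and from 9.26 over 10.39 to 11.07 in controls. The groups overlapped: 5 ND animals read below every control, ND_47 and ND_22 lowest, and ND_01 read above the control median. Means were 9.28 ± 0.71 (SD, n = 10) after ND and 10.32 ± 0.56 (SD, n = 10) without it. The difference was -1.03 ± 0.28 (SE; 95% interval -1.61 to -0.45), or 2.05-fold lower, with a limma adjusted p of 0.0275. Without ND_47 it was -0.93 (adjusted p = 0.0457). The call was lost without ND_86, ND_92 or Control_190 (adjusted p 0.0520 to 0.0523), with array weights (-0.73, adjusted p = 0.0911) and without both ND_47 and ND_92 (-0.88, adjusted p = 0.0834). Among the high-numbered pigs the difference was -0.85 (adjusted p = 0.188), and with the animal number term -0.93 (adjusted p = 0.215).

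AQP1, the constitutive water channel of the proximal tubule and the descending limb, read 12.66 to 13.20 in ND and 12.59 to 13.45 in controls. The difference was -0.03 (95% interval -0.24 to 0.18; adjusted p = 0.867), and a second probe set gave -0.03 as well. The interval leaves out changes beyond about 0.24 in either direction. AQP3, a basolateral water channel of the collecting duct outside the set, differed by -0.54 (adjusted p = 0.106).

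Of the 5 chloride channel and transporter genes 1 fell and 2 rose, where 9.99% of all genes were called. With 5 genes, the count is too small to read as a share of a class. CLCN3, which encodes the chloride and proton exchanger ClC-3 of endosomes, ran from 8.26 over 9.16 to 9.69 in ND and from 9.21 over 9.71 to 10.18 in controls. All 10 ND animals lay below the control mean, and 7 lay below every control. The difference was -0.62 ± 0.17 (SE; 95% interval -0.96 to -0.27), or 1.53-fold lower, with an adjusted p of 0.0278. CLCN3 was the one gene of the 7 with more than 1 probe set. The other 2 probe sets fell as well, by 0.46 (adjusted p = 0.0143) and by 0.56 (adjusted p = 0.00214) on the log2 scale. The call of the brightest probe set was lost without Control_155 (adjusted p = 0.0512) or Control_157 (adjusted p = 0.0530), and without both ND_47 and ND_92 (-0.59, adjusted p = 0.0699). Without ND_47 it was -0.59 (adjusted p = 0.0457). With the animal number term the difference was -0.71 (adjusted p = 0.0977), and among the high-numbered pigs -0.48 (adjusted p = 0.525).

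CLCN5, the related endosomal exchanger of the proximal tubule that is mutated in Dent disease, differed by -0.0004 (95% interval -0.39 to 0.39; adjusted p = 0.999). CLCN2, a chloride channel of the cell membrane, differed by -0.12 (95% interval -0.47 to 0.24; adjusted p = 0.633). Both read lowest of all 20 animals in ND_47, at 8.26 and 5.83.

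CLIC1 and CLIC2 belong to the chloride intracellular channel family, proteins that exist in soluble and membrane-bound forms. CLIC1 ran from 9.21 over 9.81 to 11.51 in ND and from 8.72 over 9.22 to 9.56 in controls. Its 3 highest ND values came from ND_47, ND_92 and ND_22, and 7 of 10 ND animals lay above every control. The difference was 0.77 ± 0.23 (SE; 95% interval 0.29 to 1.25), or 1.70-fold, with an adjusted p of 0.0476. CLIC2 ran from 7.44 over 8.05 to 10.20 in ND and from 6.16 over 7.42 to 7.94 in controls. ND_47, ND_92, ND_100, ND_22 and ND_194 read above every control, and the other 5 lay within the control range. The difference was 1.15 ± 0.34 (SE; 95% interval 0.43 to 1.86), or 2.22-fold, with an adjusted p of 0.0484.

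Both calls lay close to the threshold. Without ND_47, CLIC1 differed by 0.59 (adjusted p = 0.0312) and CLIC2 by 0.95 (adjusted p = 0.0634), and without both ND_47 and ND_92 by 0.49 (adjusted p = 0.0485) and 0.77 (adjusted p = 0.104). CLIC1 lost its call without any one of ND_01, ND_22, ND_31, ND_86, ND_92, ND_100 or Control_02, Control_134, Control_155, Control_156, Control_157, Control_184, Control_190, Control_197, Control_199 (adjusted p 0.0514 to 0.0898). CLIC2 lost it without ND_22, ND_47, ND_92, ND_100, ND_194 or Control_02, Control_134, Control_155, Control_156, Control_157, Control_184, Control_187, Control_190, Control_197 (adjusted p 0.0567 to 0.0898), and with array weights (0.86, adjusted p = 0.0638). Among the high-numbered pigs CLIC1 differed by 0.03 (adjusted p = 0.914) and CLIC2 by 0.65 (adjusted p = 0.540).

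Most of the leukocyte markers measured were also higher in ND. Of 6 measured markers of 10 listed, LAPTM5, ITGB2, CD3E, LCK and GNLY rose and PTPRC (0.10, adjusted p = 0.482) did not pass. Their mean level per array was 4.69 to 6.29 in ND and 4.13 to 4.82 in controls, highest in ND_47. None of these markers read at background on all arrays. CD3E was above background on 5 ND arrays and on no control array, and LCK on 10 ND and 8 control arrays. Of 9 endothelial markers measured, 0 were called, and their mean level was 6.26 to 7.50 in ND, highest in ND_47, and 6.45 to 6.95 in controls, with KDR at background on all arrays. The part of these cells in the rise of CLIC1 and CLIC2 was not tested.

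**Figure D3:**
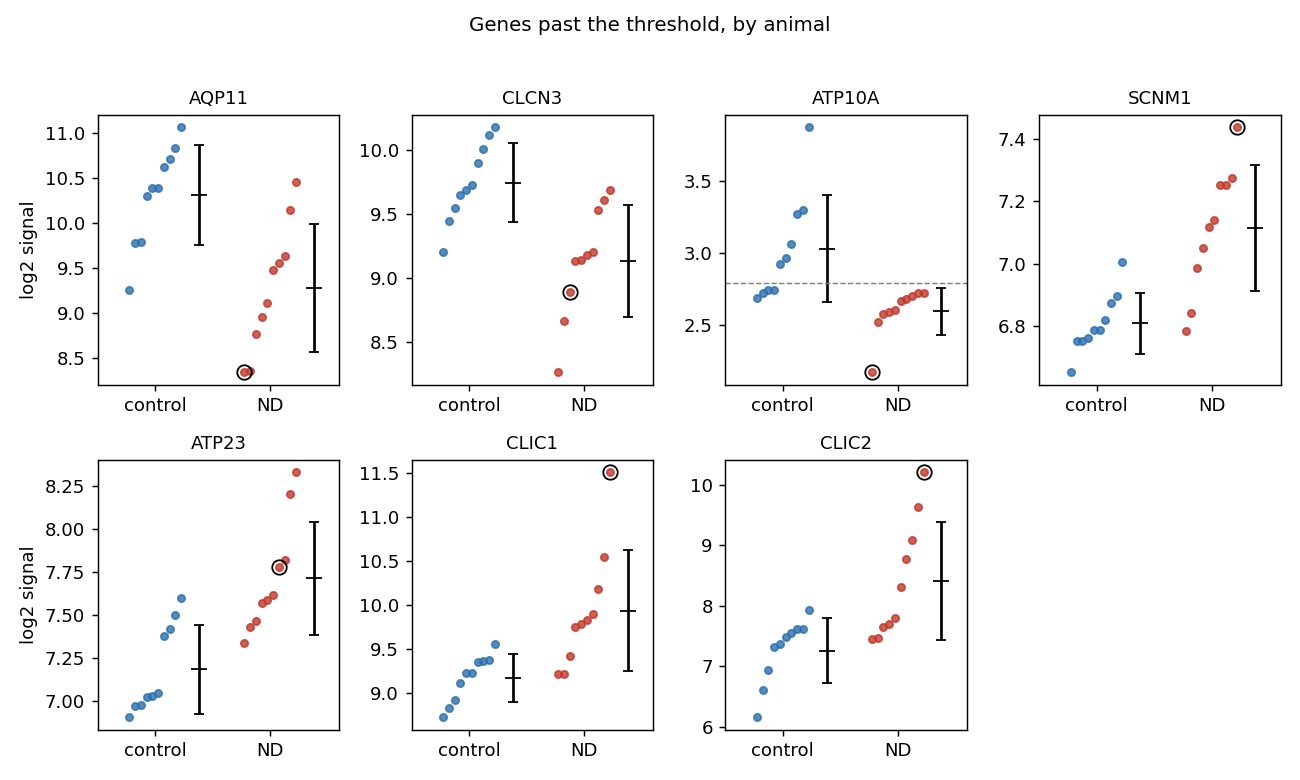
Log2 signal of the 7 genes past the threshold (y axis, a scale of its own in each panel) in 10 control and 10 ND animals, ordered by value within a group, with the mean and SD in black, ND_47 ringed and the background level dashed where it falls in range. The groups overlap in every panel, and for ATP10A all ND animals lie under the background level of 2.79.

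Of 12 genes for ion pumps and other P-type ATPases 1 fell and 11 did not pass, where 9.99% of all genes were called. ATP10A, which encodes a lipid flippase of the P-type ATPase family and no ion pump, read 2.17 to 2.72 in ND, at background on all 10 arrays. In controls it ran from 2.68 over 2.94 to 3.88, with 6 of 10 arrays above background. Controls were thus at least 1.18-fold higher, where the control arrays at background entered as read, and the measured difference was -0.43 ± 0.13 (SE; adjusted p = 0.0410). The call was lost with quantile normalization (-0.41, adjusted p = 0.0635), without both ND_47 and ND_92 (-0.38, adjusted p = 0.102), and without any one of ND_01, ND_22, ND_47, ND_86, ND_92, ND_100, ND_194, Control_02, Control_155, Control_156 or Control_187 (adjusted p 0.0503 to 0.0720). ATP13A1, an ATPase of the endoplasmic reticulum, differed by -0.24 (adjusted p = 0.186), and the lysosomal ATPase ATP13A2 by 0.01 (adjusted p = 0.965).

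The sodium pump was measured through its beta subunits, since no gene for an alpha subunit was in the set. ATP1B1, the beta 1 subunit of the tubule, read 13.44 to 14.47 in ND and 14.10 to 14.36 in controls. Its difference was -0.11 (95% interval -0.30 to 0.08; adjusted p = 0.390), and 13.44 was the value of ND_47, apart from the other 9 ND animals. A second probe set of ATP1B1 differed by 0.02 (adjusted p = 0.931). ATP1B3, the beta 3 subunit, averaged 10.88 ± 0.45 (SD, n = 10) after ND, above the controls' 10.42 ± 0.18 (SD, n = 10). All 10 ND animals lay above the control mean and 7 above every control, ND_47 highest at 12.00. Its difference of 0.46 ± 0.15 (SE; 95% interval 0.15 to 0.77) missed the threshold, with an adjusted p of 0.0666. It passed without ND_47, where the difference was 0.34 (adjusted p = 0.0291), without ND_198 (adjusted p = 0.0438), with dim probe sets left out (adjusted p = 0.0478), with array weights (0.36, adjusted p = 0.0450) and after median scaling (0.37, adjusted p = 0.0490). ATP1B3 did not pass with quantile normalization, a variance trend, the mean of a gene's probe sets or the animal number term. Nor did it pass among the high-numbered pigs, without both ND_47 and ND_92, or with any other single animal left out.

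The 3 calcium pumps above background did not pass. ATP2A2 (SERCA2, which fills the endoplasmic reticulum) differed by -0.11 (95% interval -0.38 to 0.17), ATP2B1 (a pump of the cell membrane) by 0.14 (95% interval -0.14 to 0.42) and ATP2C1 (the Golgi pump) by 0.10 (95% interval -0.14 to 0.34). Adjusted p-values were 0.587, 0.457 and 0.529. The 4 probe sets of ATP2A2 lay between -0.11 and 0.22, and none passed.

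No potassium channel gene passed in limma, and 4 of 21 had an unadjusted p under 0.05, of which KCNE2, KCNMB1 and KCNIP4 were at background. The fourth was KCNE3, a subunit that keeps the KCNQ1 channel open in epithelia. It ran from 3.86 over 5.43 to 7.17 in ND and from 2.52 over 4.51 to 6.82 in controls. ND_31 and ND_86 lay above every control, while the other 8 ND animals fell within the control range, whose upper end was set by Control_199. The difference was 1.06 ± 0.49 (SE; 95% interval 0.03 to 2.09), with an adjusted p of 0.159. A second probe set of KCNE3 read at background on all arrays, with a difference of -0.02. ND_47, at 4.36, was among the low ND animals for KCNE3.

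KCNQ1 itself differed by -0.11 (95% interval -0.41 to 0.18; adjusted p = 0.572). KCNE1, its other subunit in the tubule, varied widely in controls, from 4.08 in Control_157 to 7.93 in Control_187, and differed by -0.12 (95% interval -0.97 to 0.72; adjusted p = 0.844). KCNJ5, a subunit of channels opened by G proteins, differed by 0.21 (95% interval -0.32 to 0.74; adjusted p = 0.558) and by 0.07 without ND_47. KCNJ8, the pore of vascular ATP-sensitive channels, was read at 4.36 in ND_47 and at 3.38 or less in the other 19 animals, with a difference of 0.05 (adjusted p = 0.807). KCNIP2, a partner of voltage-gated channels, differed by -0.18 (95% interval -0.46 to 0.10; adjusted p = 0.339). KCNIP1 and KCNMA1 were above background on 1 ND array each, ND_47 and ND_193. KCNJ1, the secretory channel ROMK of the distal nephron that lies outside the set, differed by -0.50 (adjusted p = 0.0758).

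Of the cation channels none passed. TRPM7, a magnesium and calcium channel fused to a kinase, differed by 0.02 (95% interval -0.18 to 0.23; adjusted p = 0.876). TRPV6, an epithelial calcium channel, was above background on 2 ND and 6 control arrays, and its signal ran from 2.57 to 2.92 in ND and from 2.61 to 4.12 in controls. Its difference of -0.33 (95% interval -0.64 to -0.01) had an adjusted p of 0.157 and passed after median scaling (-0.42, adjusted p = 0.0490). The calcium channel subunit CACNA2D1 was above background in 2 controls and no ND animal (-0.21, adjusted p = 0.258), and CACNB3 in ND_47 alone (0.19, adjusted p = 0.383).

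None of the 8 claudins passed in limma, and 3 had an unadjusted p under 0.05. Their differences were positive for 7 of 8, with a median of 0.47, where the median over all genes was -0.02. Of these 7, CLDN3, CLDN6 and CLDN11 read at background in every control, and above it on only 4, 3 and 1 ND arrays. The count and the median thus lean partly on genes measured only where ND was high. CLDN11 turned negative without ND_47. After median scaling CLDN10 and CLDN11 turned negative, and the claudin median was 0.38. CLDN4, a claudin of the collecting duct that limits sodium passage, ran from 7.48 over 8.44 to 10.77 in ND and from 7.30 over 7.83 to 8.63 in controls. ND_47, ND_22, ND_92 and ND_86 lay above every control, and the other 6 lay within the control range. The difference was 0.90 ± 0.36 (SE; 95% interval 0.15 to 1.65), with an adjusted p of 0.120.

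CLDN7, a second claudin of the distal nephron and collecting duct, had the same 4 animals above every control, with ND_47 at 11.77. Its other ND values reached down to 8.99, below the lowest control at 9.13, and the difference was 0.42 (95% interval -0.20 to 1.05; adjusted p = 0.321). CLDN6, a claudin of embryonic epithelia, read at background in all 10 controls and above it in 3 ND animals, at 6.34 in ND_47, 5.24 in ND_22 and 3.19 in ND_92. The other 7 ND animals read at background, and the difference of 0.91 (adjusted p = 0.195) was 0.54 without ND_47 (adjusted p = 0.269). CLDN3, a claudin that seals the junction, was above background in ND_47 (4.17), ND_31 (3.52), ND_22 (3.29) and ND_92 (3.19) and in no control (adjusted p = 0.165). A second probe set of CLDN3 read at background on all arrays, with a difference of -0.05. In the RefSeq gene table of pig CLDN3 and CLDN4 are neighbouring genes.

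CLDN12, which forms calcium-permeable pores, differed by 0.87 (95% interval 0.02 to 1.72; adjusted p = 0.161), with ND_92 (6.02) and ND_47 (5.34) above every control. CLDN11 was above background in ND_47 alone, at 3.74. The remaining claudins of the set lay close to 0. CLDN10 differed by 0.09 (95% interval -0.09 to 0.27; adjusted p = 0.475), and CLDN14, which reduces calcium passage, by -0.003 (95% interval -0.36 to 0.35; adjusted p = 0.991). CLDN5, the endothelial claudin outside the set, rose by 2.02 (adjusted p = 0.00370).

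The spread was wider in ND than in controls for CLDN4 (SD 1.07 against 0.46), CLDN7 (SD 0.91 against 0.34) and CLDN6 (SD 1.52 against 0.02), with n = 10 in each group. The median difference of the 8 claudins was 0.29 without ND_47, 0.19 without ND_47 and ND_92, and -0.03 among the high-numbered pigs, where 3 of 8 were positive. It was 0.25 with the animal number term, where all 8 were positive, and 0.24 with array weights. No claudin was called in any of these fits. CLDN4 was at 0.68 without ND_47 (adjusted p = 0.179), at 0.53 without ND_47 and ND_92 (adjusted p = 0.296) and at 0.11 among the high-numbered pigs (adjusted p = 0.870).

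**Figure D4:**
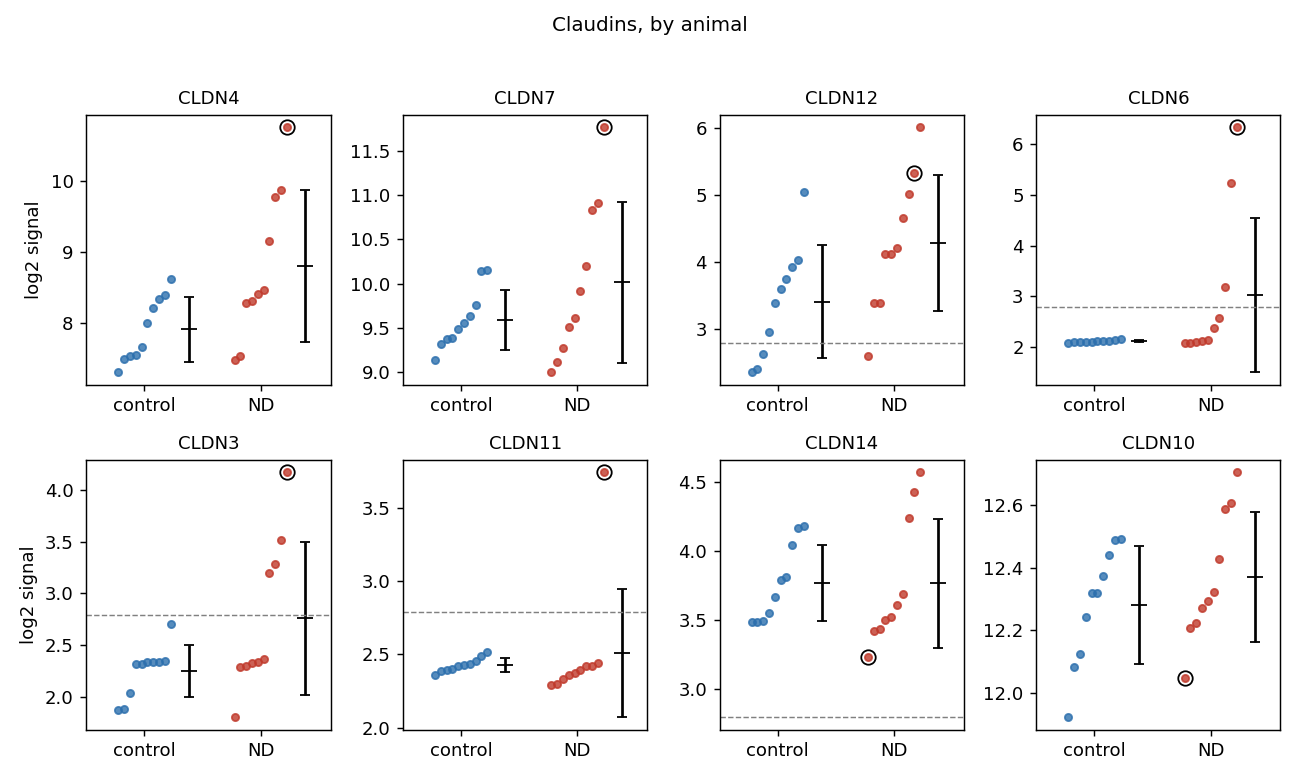
Log2 signal of the 8 claudins (y axis, a scale of its own in each panel) in 10 control and 10 ND animals, ordered by value within a group, with the mean and SD in black, ND_47 ringed and the background level dashed where it falls in range. ND_47 is the highest animal for CLDN3, CLDN4, CLDN6, CLDN7 and CLDN11, and the groups overlap in every panel.

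Markers of other cell types also varied among ND animals. Of 4 urothelial markers measured of 5 listed UPK1A and UPK2 were at background on all arrays. UPK1B read 6.45 in ND_47 and 3.79 in ND_22, against 2.38 to 3.25 in controls, and UPK3A read 4.32 in ND_92, 3.54 in ND_47, 3.27 in ND_194 and 2.81 in ND_01, with the other ND animals, ND_22 among them, and all controls at background. Their mean level over the list was 2.17 to 3.52 in ND and 2.19 to 2.43 in controls. The mean level of 7 smooth muscle and pericyte markers was 6.60 to 8.64 in ND, highest in ND_47, and 6.53 to 7.57 in controls, with 1 of 7 called (PDGFRB, 0.65) and MYLK at background. That of 4 proximal tubule markers was 10.22 to 12.32 in ND, lowest in ND_47, and 11.10 to 12.03 in controls, with none called or at background. These 4 markers of the labelled tissue (LRP2, SLC22A6, SLC22A8 and PDZK1) read above background on every array. Among measured markers of striated muscle, nerve, red cells, fat and adrenal gland, 1 nerve marker (MBP) and 1 fat marker (FABP4) fell and the others did not pass. MYH7, TNNT1, TNNC2, TNNT2, MYL1, SYN1, ADIPOQ, CYP17A1 and STAR read at background on all arrays. CKM, MYH2, SNAP25, GFAP and ALAS2 did so on most arrays. For these genes the lack of a call does not show an unchanged level. The part of tissue composition in the claudin values was not tested.

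The 2 remaining genes that changed carry the prefixes by name only. SCNM1 encodes a splicing factor named for its effect on a sodium channel, and ran from 6.78 over 7.13 to 7.44 in ND, against a control median of 6.79. Of 10 ND animals 7 lay above every control. It rose 1.24-fold, by 0.31 ± 0.07 (SE; adjusted p = 0.0119). ATP23, a protease of the mitochondrial intermembrane space that helps to assemble ATP synthase, ran from 7.34 over 7.60 to 8.33 in ND and from 6.90 over 7.04 to 7.60 in controls. It rose 1.44-fold, by 0.53 ± 0.13 (SE; adjusted p = 0.0163), with 5 ND animals above every control. Both kept their calls when any 1 of the 20 animals was left out, and without both ND_47 and ND_92 (0.27 and 0.55). With the animal number term they were 0.20 (adjusted p = 0.247) and 0.51 (adjusted p = 0.134), and neither passed among the high-numbered pigs. CLDND1, a claudin domain protein, differed by 0.15 (adjusted p = 0.157), and TRPC4AP, an adaptor protein, by 0.11 (adjusted p = 0.431).

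Partner genes of these channels, pumps and junctions were counted from a list of 56, of which 29 were measured. Of the 29, 2 rose, 2 fell and 25 did not pass, where 9.99% of all genes were called. FXYD3, AVPR2, ITPR1 and SLC9A3 were at background on all arrays. FXYD5 (dysadherin), a regulatory subunit of the sodium pump, ran from 4.09 over 4.80 to 6.56 in ND and from 3.38 over 4.03 to 4.37 in controls. It rose by 0.95 ± 0.25 (SE; adjusted p = 0.0237), with ND_47 highest, and by 0.76 without ND_47 (adjusted p = 0.0137). With the animal number term its difference was 0.43 (adjusted p = 0.509), and among the high-numbered pigs it was 0.30 and did not pass. FXYD2, the gamma subunit of the tubular pump, differed by 0.02 (adjusted p = 0.886).

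SGK1, a kinase that keeps epithelial sodium channels at the cell surface, ran from 10.76 to 12.78 in ND and from 13.06 to 14.22 in controls, without overlap. Its difference was -1.46 ± 0.25 (SE; adjusted p = 0.00174), and the glucocorticoid-induced TSC22D3 of the same list fell by 2.26 on the log2 scale (adjusted p = 5.71e-09). SGK1 lost its call with the animal number term (-1.17, adjusted p = 0.0570) and among the high-numbered pigs (-1.13, adjusted p = 0.167). TSC22D3 kept it in both, at -2.29 (adjusted p = 8.59e-07) and -2.46 (adjusted p = 0.0259). Of the other 6 regulators of epithelial sodium transport OXSR1 was at 0.38 (adjusted p = 0.0649) and PRSS8, a protease that activates the channel, at -0.33 (adjusted p = 0.202). SCNN1B, the beta subunit of the sodium channel and outside the set, differed by -0.49 (adjusted p = 0.0876).

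ORAI1, the pore of store-operated calcium entry, ran from 6.05 to 7.79 in ND, ND_47 highest, and from 4.18 to 6.29 in controls. It rose by 0.90 ± 0.26 (SE; adjusted p = 0.0408). The difference was 1.04 with the animal number term (adjusted p = 0.121), 0.21 among the high-numbered pigs (adjusted p = 0.530) and 0.68 without ND_47 and ND_92 (adjusted p = 0.109). It lost its call without ND_01, ND_47, ND_86, ND_92, ND_100, ND_194 or Control_134, Control_155, Control_156, Control_157, Control_184 or Control_190 (adjusted p 0.0515 to 0.0763). Of 6 tight junction proteins measured none passed in limma. CXADR was at 0.51 (adjusted p = 0.0529), JAM3 at -0.40 (adjusted p = 0.0978) and the claudin partner OCLN at 0.28 (adjusted p = 0.236). None of 4 ion carriers passed, with SLC4A4, the basolateral bicarbonate carrier of the proximal tubule, at -0.32 (adjusted p = 0.541).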

How the data were processed

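Kidney RNA of 20 pigs (10 ND, 10 control) was measured on 1-colour arrays with 1 array per animal number. Per the labels, TRIzol was used for extraction, and the biotin-tagged cRNA started from 250 ng of RNA. The values the authors deposited are log2 signals of probe sets. That unit was inferred from the range (0.88 to 16.2), and the summarization and normalization are not given in the sources used here. Array medians were 5.09 to 5.35, and the number of arrays limits precision.

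Groups came from the sample titles. Of 24123 probe sets 124 control probe sets were left out. Gene symbols came from the platform annotation, and 59 of the 62 genes had an Entrez ID in the RefSeq table (Sscrofa11.1), all 59 with the same symbol. No sequences were used, and gene coordinates served only to find neighbouring genes. ND and control were compared over the other 23999 probe sets in R 4.3.3 by limma 3.58.1, with group as the single term, after the same code had been tested on simulated data. A fold for a gene at background in 1 group sets the brighter group's mean against, per array of the other group, the higher of its own value and the lowest signal above background.

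The genes and gene lists were chosen with earlier results of these data known, and the 4 genes taken by prefix only were set apart after their values were seen. Named genes were all that passed, up to 4 per role, the largest differences that did not pass, and the listed partners with the smallest p. CLCN5, KCNIP1, KCNMA1, CACNB3, CLDN11, CLDN14, UPK1B, UPK3A, FXYD2, OCLN, SLC4A4 and further cell type markers were named after their values were seen. Alternatives tried were median and quantile scaling, a filter on dim probe sets, a variance trend, weights for arrays, the mean of a gene's probe sets, a term for animal number, subsets of animals, other thresholds and leaving out each animal. Animal numbers in the titles are taken as separate animals.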

Additional observations from a re-analysis of the deposited data

Results flagged for a closer look

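Of 78 groups of 10 values examined for a value far from the rest (a gap to its nearest neighbour past Dixon's 95% critical value, which chance gives in about 1 of 20 groups), 11 held one, and 8 of these values came from ND_47. In ND_47 the highest of the ND group were ATP1B3 (12.00), KCNJ5 (9.07), KCNJ8 (4.36), CLDN11 (3.74), CACNB3 (3.24) and KCNIP1 (3.15), and the lowest were ATP1B1 (13.44) and ATP10A (2.17). The other 3 were KCNMA1 in ND_193 (2.80) and, among controls, ATP10A (3.88) and KCNMA1 (2.33) in Control_157. The values of ATP10A and KCNMA1 lie at or near background except ATP10A in Control_157. For CLDN11, KCNIP1 and CACNB3 in ND_47 and KCNMA1 in ND_193, the distant value was the one above background, through which the gene entered the groups examined, so the share that chance gives does not apply to them.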

How the results depend on the processing

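The count of 7 genes called was 28 after median scaling (5 higher, 23 lower), 3 without ND_47 and ND_92 (3 higher, 0 lower), and 0 at an adjusted p under 0.01, with the animal number term and among the high-numbered pigs, by limma (0 higher and 0 lower in the last 2). It was 6 to 8 under the other scaling, filter, variance, weighting and summary alternatives, 10 at an adjusted p under 0.1, and 3 to 8 when 1 animal was left out (2 to 5 higher, 1 to 3 lower). It was 3 or 4 without ND_22, ND_86, ND_92, ND_100, Control_02, Control_155, Control_156, Control_157 or Control_190. The share called over all genes was taken for the main fit alone, so the counts under alternatives have no such share beside them. Of the 29 partners measured, 4 were called in the main fit and 10 after median scaling. Only 1 (TSC22D3) was called with the animal number term, and 1 (TSC22D3) among the high-numbered pigs. The count of partners called was 5 or 6 under the other scaling, filter, variance, weighting and summary alternatives. It was 3 without ND_47 and ND_92, and 3 to 6 when 1 animal was left out. The median difference of -0.03 was -0.11 after median scaling, 0.000539 with quantile normalization, 0.0476 with dim probe sets left out, and -0.03 to -0.02 when 1 animal was left out. No gene that was called changed sign under any alternative. No paired analysis was possible because the groups share no animal number. Signal over background limits what can be said of 23 of the 62 genes, which read at background on all arrays.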
